A study of Mus musculus with 12 samples.

Results

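Transforming growth factor-β (TGF-β) ligands, receptors and regulators were followed in bulk RNA sequencing of mouse tissue from beside the spine. The set held 10 genes, taken by symbol from a table of 18996 genes. They were the ligands *Tgfb1*, *Tgfb2* and *Tgfb3*, the activin subunit *Inhba*, the latent TGF-β binding proteins *Ltbp1* and *Ltbp2*, the receptors *Tgfbr1*, *Tgfbr2* and *Tgfbr3*, and the inhibitor *Smad7*. All 10 had a row in the table and were among the 14765 genes that passed the filter on low counts.

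The mice were BALB/c animals of 5 to 7 weeks, with 4 mice in each of 3 groups. No operation mice were not operated and gave paraspinal soft tissue. In SHAM mice the paraspinal soft tissue was removed and the lamina was left in place, whereas in Laminectomy mice the lamina, the bony roof of the spinal canal, was excised. Both surgical groups gave paraspinal soft tissue together with scar tissue, collected 7 days after surgery, and the labels give no introduced allele or drug for any group. The 3 comparisons asked how the genes differed between each kind of surgery and intact tissue, and between surgery with and without opening of the spinal canal.

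TGF-β is secreted as a latent dimer that remains bound to its own propeptide, and the latent complex is tethered to the extracellular matrix through latent TGF-β binding proteins. Integrins, proteases and thrombospondin release the active ligand, which binds the type II receptor TGFBR2 and then the type I receptor TGFBR1, while the co-receptor betaglycan (TGFBR3) presents ligand, TGF-β2 above all. The activated type I receptor phosphorylates SMAD2 and SMAD3, and SMAD7 is a feedback inhibitor of that step. In wounds the pathway is known for driving fibroblasts to make collagen and to become contractile myofibroblasts.

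Total counts were between 16802989 and 18077868 per mouse. Levels are given in CPM, that is, counts relative to the TMM-scaled size of each library. The tissue changed in composition between groups, and in bulk tissue fewer cells of a type and less RNA per cell cannot be told apart. Summed over 10 skeletal muscle markers, levels ran from 101700 to 146400 CPM without operation, from 2464 to 9988 CPM after SHAM surgery and from 3413 to 14280 CPM after Laminectomy, and all 10 markers fell in both surgical groups. The sum of 8 macrophage and monocyte markers ranged from 776.5 to 2042 CPM, from 4982 to 8450 CPM and from 3634 to 5679 CPM in the same order, with 8 of 8 markers higher in SHAM and 7 of 8 in Laminectomy. The 8 fibroblast markers summed to between 6451 and 19780 CPM, between 40220 and 57530 CPM, and between 36320 and 42290 CPM, with 4 of 8 markers higher in each surgical group and 1 lower in SHAM and 2 in Laminectomy. The 7 markers of regenerating muscle summed to between 47.48 and 90.49 CPM without operation and to between 1345 and 2153 CPM after Laminectomy, and 6 of 7 were higher in each surgical group, with a median log2 fold change of 5.52 in SHAM and 6.06 in Laminectomy over the list. Their part in the members' differences was not tested. SHAM replicate 1 stood apart from the other SHAM mice, with a sum of 4.552 CPM of these markers against 1243 to 2149 CPM in SHAM replicates 2 to 4. Calls and log2 fold changes of members that rest on this mouse are given with and without it. The collagen genes *Col1a1* and *Col3a1* made up 92.8% to 96.7% of the fibroblast sum in operated mice and 41.3% to 81.4% in No operation mice. Of the other 6, *Dcn* had the highest level and fell from a mean of 3288 CPM to 1711 CPM in SHAM and 991.3 CPM in Laminectomy. The remaining 5 summed to between 997.6 and 1350 CPM without operation, between 1357 and 1580 CPM after SHAM surgery and between 807.2 and 1384 CPM after Laminectomy. Among these 5, *Pdgfra* and *Lum* were higher in SHAM, and *Lum* and *Fap* were higher and *Pi16* lower in Laminectomy.

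The stretch of DNA just before the start of transcription is shown for 3 members: *Tgfb1* and *Tgfb2*, which changed in opposite directions in SHAM, and *Ltbp1*, the only one of 7 members with a window that held a cAMP response element. The sequences are from RefSeq (GRCm38.p6), 250 bases before the annotated start, 5′ to 3′ on the strand of the gene. They lie at chr7:25686752-25687001 (plus strand), chr1:186705990-186706239 (minus strand) and chr17:75005279-75005528 (plus strand). Capitals mark a SMAD box (CAGACA) in *Tgfb2* and a cAMP response element (TGACGTCA) in *Ltbp1*.
Tgfb1: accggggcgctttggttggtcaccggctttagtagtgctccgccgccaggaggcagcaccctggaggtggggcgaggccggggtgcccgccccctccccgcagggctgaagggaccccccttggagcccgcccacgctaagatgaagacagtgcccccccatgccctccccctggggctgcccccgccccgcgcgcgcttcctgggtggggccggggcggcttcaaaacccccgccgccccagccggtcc
Tgfb2: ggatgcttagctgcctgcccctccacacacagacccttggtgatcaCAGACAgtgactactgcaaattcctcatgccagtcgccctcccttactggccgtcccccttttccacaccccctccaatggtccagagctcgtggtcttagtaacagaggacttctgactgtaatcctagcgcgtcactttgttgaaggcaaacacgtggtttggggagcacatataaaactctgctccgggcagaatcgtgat
Ltbp1: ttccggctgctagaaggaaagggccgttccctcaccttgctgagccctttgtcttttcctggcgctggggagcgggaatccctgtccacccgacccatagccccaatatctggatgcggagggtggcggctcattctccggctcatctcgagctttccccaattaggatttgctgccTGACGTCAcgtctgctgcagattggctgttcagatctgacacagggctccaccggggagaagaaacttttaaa
The *Tgfb1* stretch had a GC content of 75.2%, against 53.6% for *Tgfb2*, 56.8% for *Ltbp1* and a median of 52.4% over all 32851 such windows, which hold 250 bases before each start. Each of 4 letter patterns was searched on both strands. GTCTAGAC, the SMAD palindrome, was in 0.167% of all windows and in none of the 9 windows that matched 7 of the 10 members. CAGACA was in 17.1% of all windows, and in *Tgfb2* and the second windows of *Tgfbr1* and *Ltbp1*. TGANTCA, an AP-1 site, was in 6.75% of all windows and in none of the members' windows. TGACGTCA was in 1.55% of all windows and in the first *Ltbp1* window alone among the members. *Tgfb3*, *Tgfbr3* and *Smad7* had no window in the table used.

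Of the 10 members, 5 were differentially expressed genes (DEGs) between SHAM and No operation, 3 higher (*Tgfb1*, *Tgfbr2*, *Ltbp2*) and 2 lower (*Tgfb2*, *Smad7*). A DEG had a Benjamini-Hochberg adjusted p below 0.05 in edgeR's quasi-likelihood test and an absolute log2 fold change above 0.5. Of all genes tested, 50.8% were DEGs in this comparison, 25.7% higher and 25.1% lower, next to the members' 50%. Between Laminectomy and No operation 6 members were DEGs, 4 higher (*Tgfb1*, *Tgfb3*, *Inhba*, *Ltbp2*) and 2 lower (*Tgfbr3*, *Smad7*), against 48.6% of all genes, 24.2% higher and 24.4% lower. The 2 comparisons share the No operation mice. *Tgfb1*, *Ltbp2* and *Smad7* were DEGs in the same direction in both. Without SHAM replicate 1 the counts were 4 in SHAM, where *Tgfb2* dropped out, and 6 in Laminectomy. With total counts as library size, the median log2 fold change of all genes moved from 0.00 to 0.25 for SHAM and from 0.01 to 0.33 for Laminectomy, and the share of DEGs that were higher went from 50.6% to 66% and from 49.8% to 69.9%. The changes below are therefore relative to the bulk of genes.

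**Figure D1:**
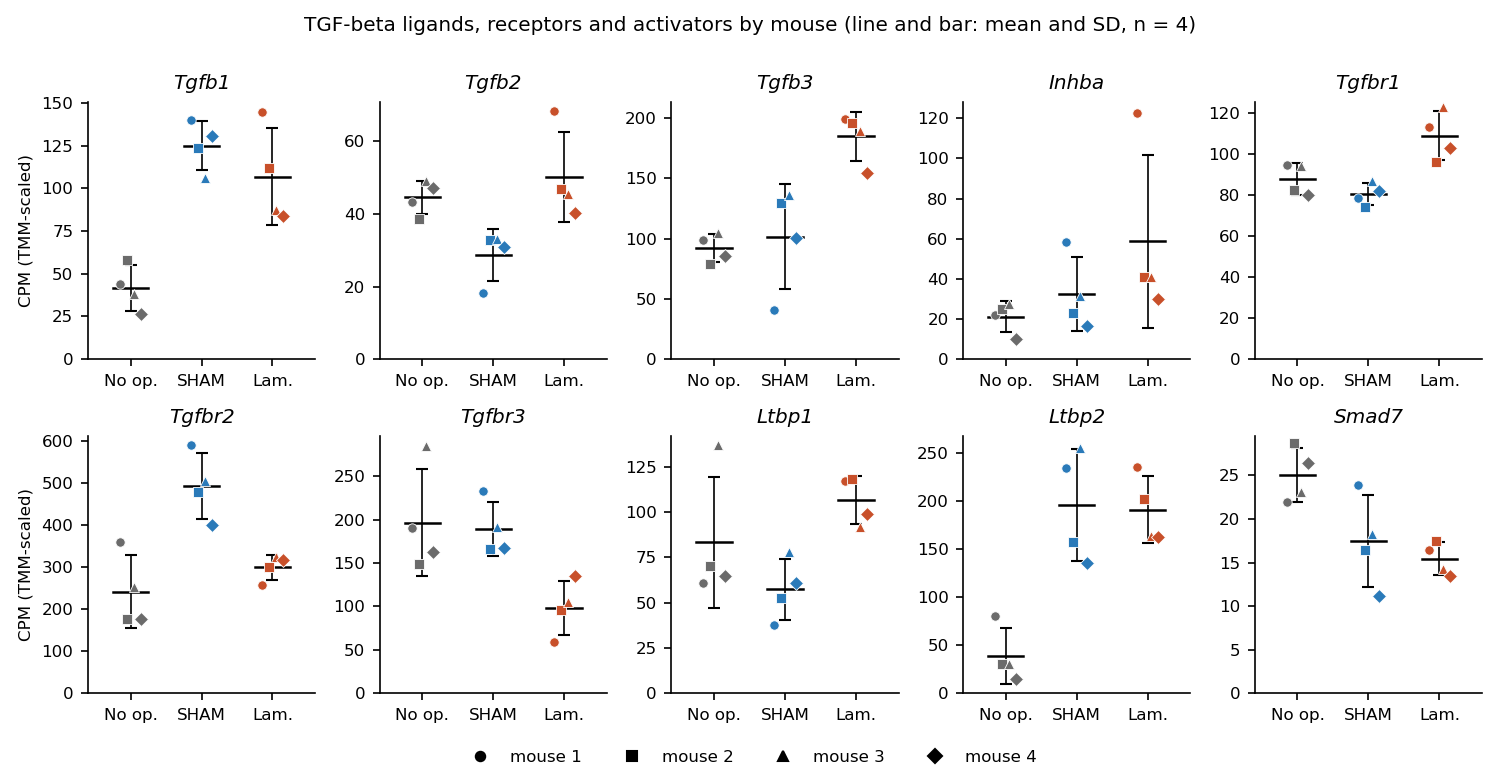
Level of each of the 10 genes in every mouse, in CPM on an axis from 0, for No operation (gray), SHAM (blue) and Laminectomy (red). Marker shapes give the replicate number, the horizontal line is the mean and the bar is the SD over 4 mice. *Tgfb1* and *Ltbp2* were above all No operation mice in both surgical groups, and *Tgfb3* was highest in the 4 Laminectomy mice, between 154.3 and 199.5 CPM.

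*Tgfb1* (gene 21803; GRCm38 chromosome 7, 25687002 to 25705077) encodes the ligand most studied in scarring. The No operation mice gave 43.83, 58.31, 38.43 and 26.22 CPM, the SHAM mice 139.8, 123.6, 106.2 and 130.4 CPM and the Laminectomy mice 144.8, 111.8, 87.34 and 83.62 CPM. Every operated mouse was above every No operation mouse. *Tgfb1* rose 3-fold in SHAM (log2 fold change 1.58, standard error 0.237, adjusted p = 0.000161, edgeR) and 2.56-fold in Laminectomy (1.36, standard error 0.235, adjusted p = 0.000512, edgeR). Between the surgical groups the log2 difference was -0.23, with a 95% interval from -0.73 to 0.28, and the mice overlapped. Both rises were DEGs in all 21 alternative settings. The macrophage marker sum was also higher in every operated mouse than in every No operation mouse, and its part in the *Tgfb1* difference was not tested.

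*Tgfb2* (gene 21808; chromosome 1, 186622792 to 186705989) encodes the ligand that depends most on betaglycan for access to its receptors. Among No operation mice it measured 43.42, 38.6, 49.02 and 47.25 CPM, among SHAM mice 18.15, 32.9, 32.99 and 30.8 CPM, and among Laminectomy mice 68.45, 46.83, 45.53 and 40.35 CPM. All SHAM mice were below all mice of the other groups, whose ranges overlapped. *Tgfb2* fell by 35.6% in SHAM (log2 fold change -0.63, standard error 0.204, adjusted p = 0.0181, edgeR). Without SHAM replicate 1 the fall was -0.46, under the fold threshold (adjusted p = 0.0311), and with total counts as library size it was -0.37 (adjusted p = 0.137). Over all alternatives the adjusted p ran from 0.00892 to 0.137. In Laminectomy the difference from No operation was 0.17 (standard error 0.203, adjusted p = 0.481, edgeR).

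*Tgfb3* (gene 21809; chromosome 12, 86056745 to 86079041) encodes the third ligand, which is known from fetal and scarless wound repair. The values were 99.11, 79.22, 104.8 and 85.73 CPM without operation and 40.63, 129.2, 136 and 100.3 CPM after SHAM surgery. Laminectomy mice had 199.5, 195.6, 189.4 and 154.3 CPM, above every mouse of the other groups. *Tgfb3* rose 2-fold in Laminectomy against No operation (log2 fold change 1.00, standard error 0.291, adjusted p = 0.0111, edgeR) and remained a DEG in every alternative. In SHAM it differed from No operation by 0.14 (standard error 0.288, adjusted p = 0.693, edgeR), with SHAM replicate 1 the lowest of all 12 mice. Without that mouse the SHAM value was 0.41 (adjusted p = 0.0325), still under the fold threshold, and its adjusted p over all alternatives ran from 0.0325 to 0.993.

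*Inhba* (gene 16323; chromosome 13, 16011851 to 16031621) encodes the βA subunit, a pair of which forms activin A, a relative of TGF-β that signals through SMAD2 and SMAD3. Levels were 21.78, 25.19, 27.51 and 10.02 CPM without operation, 58.61, 23.16, 31.3 and 16.76 CPM after SHAM surgery and 122.7, 41.08, 40.77 and 30.24 CPM after Laminectomy. The Laminectomy mice lay above the No operation mice, and one of them, at 122.7 CPM, stood far above the rest. *Inhba* rose 2.78-fold in Laminectomy (log2 fold change 1.47, standard error 0.51, adjusted p = 0.0263, edgeR). This call was lost without Laminectomy replicate 1 (0.82, adjusted p = 0.116), without No operation replicate 1 (1.49, adjusted p = 0.0504) and without No operation replicate 4 (1.24, adjusted p = 0.0685), within a range from 0.00514 to 0.116 over all alternatives. In SHAM the log2 fold change was 0.62 (standard error 0.504, adjusted p = 0.303, edgeR), or 0.17 without SHAM replicate 1.

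Per length of transcript, the 3 TGF-β ligands were present in different proportions in each group. Levels were divided by the summed exon length of each gene and scaled to the same total in every mouse (TPM), and shares were taken within a mouse, as descriptions. *Tgfb3* made up 49.8% ± 6.32 (SD, n = 4) of the sum of the 3 ligands in No operation mice, *Tgfb1* 34.4% ± 8.84 and *Tgfb2* 15.8% ± 2.86. In SHAM mice *Tgfb1* led with 62.7% ± 12.9, followed by *Tgfb3* with 31.5% ± 11.9 and *Tgfb2* with 5.87% ± 1.02. In Laminectomy mice *Tgfb3* (48.6% ± 4.51) and *Tgfb1* (42.9% ± 4.03) were close and overlapped between mice, and *Tgfb2* made up 8.48% ± 0.769. The *Tgfb1* share was between 51.2% and 80.6% in SHAM mice, above the 38.3% to 48% of Laminectomy mice and the 25.9% to 46.5% of No operation mice. The highest share, 80.6%, was that of SHAM replicate 1, and SHAM replicates 2 to 4 were at 56.1%, 51.2% and 62.8%. The *Tgfb3* share was 15.1% in SHAM replicate 1 and 37.7%, 42.1% and 31% in SHAM replicates 2 to 4.

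**Figure D2:**
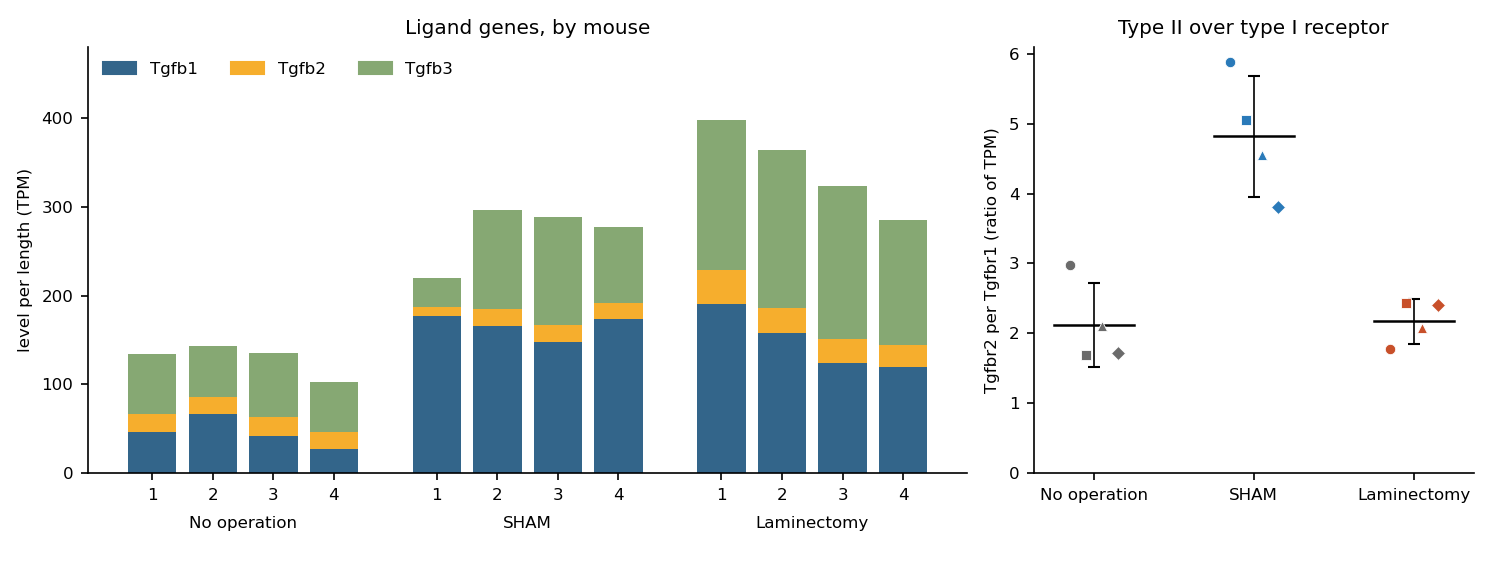
Left, levels per length (TPM) of *Tgfb1*, *Tgfb2* and *Tgfb3* stacked for each of the 12 mice. Right, the ratio of *Tgfbr2* to *Tgfbr1* TPM in each mouse, with marker shapes for the replicate number, the mean as a line and the SD over 4 mice as a bar; the SHAM mice lay between 3.81 and 5.88 and all other mice between 1.69 and 2.98.

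Of the latent TGF-β binding proteins, *Ltbp2* was a DEG in both surgical groups and *Ltbp1* in neither. LTBP1 binds the latent complex covalently, whereas LTBP2 does not bind latent TGF-β and associates with fibrillin. *Ltbp2* (gene 16997; chromosome 12, 84783212 to 84876532) measured 80.29, 30.54, 30.04 and 14.58 CPM without operation, 234, 157.4, 255.2 and 135.4 CPM after SHAM surgery and 235, 202.1, 163.7 and 162.2 CPM after Laminectomy. All operated mice were above all No operation mice. *Ltbp2* rose 5.03-fold in SHAM (log2 fold change 2.33, standard error 0.434, adjusted p = 0.000721, edgeR) and 4.91-fold in Laminectomy (2.30, standard error 0.434, adjusted p = 0.000885, edgeR), the largest changes among the members in both comparisons. Over all alternatives the log2 fold change against No operation ran from 2.06 to 2.96 in SHAM and from 2.03 to 2.93 in Laminectomy. The surgical groups differed by -0.04, with a 95% interval from -0.94 to 0.87. The fibroblast marker sum, most of it from *Col1a1* and *Col3a1*, was likewise higher in every operated mouse, and its part in the *Ltbp2* difference was not tested. Genes on the opposite strand that are not in the table overlap exons of *Ltbp2*, *Tgfb2* and *Tgfb3*, and of *Acvr1c*, *Zfyve9* and *Plekhh2*, which are described below. Genes on the same strand, also not in the table, overlap exons of *Tgfbr3*, *Fdps* and *Col3a1*.

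For *Ltbp1* (gene 268977; chromosome 17, 75005568 to 75392512) the No operation mice gave 60.92, 70.41, 137 and 64.56 CPM, the SHAM mice 37.93, 52.58, 77.95 and 60.8 CPM and the Laminectomy mice 116.9, 118.1, 91.95 and 98.94 CPM. No operation replicate 3 was the highest mouse of all, and 3 of 4 No operation mice were below every Laminectomy mouse. Neither surgical group passed the test against No operation: the log2 fold change was -0.54 in SHAM (standard error 0.272, adjusted p = 0.105, edgeR) and 0.36 in Laminectomy (standard error 0.271, adjusted p = 0.277, edgeR). Both values depended on single mice. Without No operation replicate 3 *Ltbp1* was a DEG in Laminectomy (0.70, adjusted p = 0.0152, range over alternatives 0.0152 to 0.508) and the SHAM value was -0.19 (adjusted p = 0.446). Without SHAM replicate 3 it was a DEG in SHAM (-0.72, adjusted p = 0.0471, range over alternatives 0.0471 to 0.446). The ratio of *Ltbp2* to *Ltbp1* per length was 0.56 ± 0.532 in No operation, 3.74 ± 1.76 in SHAM and 1.82 ± 0.164 in Laminectomy mice (SD, n = 4), and it was between 1.67 and 2.05 in Laminectomy mice. SHAM replicate 1 had the highest ratio, 6.29, and SHAM replicates 2 to 4 were at 3.05, 3.34 and 2.27.

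Of the 3 receptors, *Tgfbr2* was a DEG in SHAM, *Tgfbr3* in Laminectomy and *Tgfbr1* in neither. *Tgfbr2* (gene 21813; chromosome 9, 116084293 to 116175360), the type II receptor that binds ligand first, measured 360, 177.4, 252.8 and 175.8 CPM without operation. SHAM mice had 590, 477.9, 503.3 and 399.9 CPM, above every other mouse, and Laminectomy mice had 256.5, 299.3, 324.9 and 315.9 CPM, within the No operation range. *Tgfbr2* rose 2.04-fold in SHAM (log2 fold change 1.03, standard error 0.222, adjusted p = 0.00187, edgeR), and by 0.94 without SHAM replicate 1 (adjusted p = 0.00555, range over alternatives 2.15e-05 to 0.00758). In Laminectomy the value was 0.31 (standard error 0.22, adjusted p = 0.245, edgeR). It became a DEG without No operation replicate 1, the highest of its group (0.57, adjusted p = 0.0172), and with total counts as library size (0.64, adjusted p = 0.0184), within a range from 0.0172 to 0.494.

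*Tgfbr1* (gene 21812; chromosome 4, 47353222 to 47414931), the type I receptor kinase, varied little between mice, with coefficients of variation between 6.65% and 11% within groups. The No operation mice gave 94.76, 82.31, 94.32 and 80.26 CPM, the SHAM mice 78.62, 74.14, 86.75 and 82.21 CPM and the Laminectomy mice 113.4, 95.93, 123.1 and 102.9 CPM. The 4 Laminectomy mice were above all others, while No operation and SHAM overlapped. In Laminectomy *Tgfbr1* passed the test against No operation but was below the fold threshold (log2 fold change 0.31, standard error 0.0994, adjusted p = 0.0191, edgeR). With total counts as library size it was a DEG there (0.63, adjusted p = 0.000242, range over alternatives 0.000242 to 0.0609). In SHAM its value was -0.13 (standard error 0.0994, adjusted p = 0.279, edgeR), which changed sign to 0.13 with total counts as library size. Per length, *Tgfbr2* stood at 2.12 ± 0.601 times *Tgfbr1* in No operation mice, 4.82 ± 0.869 times in SHAM mice and 2.17 ± 0.316 times in Laminectomy mice (SD, n = 4), as the plot of ligand and receptor balance shows.

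*Tgfbr3* (gene 21814; chromosome 5, 107106570 to 107289629) encodes betaglycan, which presents ligand at the cell surface and also binds inhibin. Intact tissue gave 190, 148.8, 285.1 and 162.2 CPM and SHAM tissue 233.2, 165.6, 191 and 167.4 CPM. Laminectomy mice had 59.35, 95.52, 105.5 and 134.6 CPM, below every mouse of the other groups. *Tgfbr3* fell by 49.8% in Laminectomy (log2 fold change -0.99, standard error 0.257, adjusted p = 0.00607, edgeR) and kept this call in all alternatives except a threshold of 1 on the log2 fold change. In SHAM the value was -0.05 (95% interval -0.61 to 0.50, adjusted p = 0.866, edgeR), and with total counts as library size it was 0.20. The sum of 5 adipocyte markers ran from 1395 to 2506 CPM without operation, from 37.82 to 1477 CPM after SHAM surgery and from 4.712 to 157 CPM after Laminectomy, with 5 of 5 markers lower in Laminectomy and 3 of 5 in SHAM. The part of these cells in the *Tgfbr3* difference was not tested.

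*Smad7* (gene 17131; chromosome 18, 75367529 to 75395935), the feedback inhibitor, was among the members with the fewest reads. Among No operation mice it measured 21.99, 28.65, 23.05 and 26.36 CPM, among SHAM mice 23.88, 16.48, 18.32 and 11.21 CPM, and among Laminectomy mice 16.46, 17.48, 14.3 and 13.4 CPM. The Laminectomy mice were below all No operation mice, and SHAM replicate 1 was within the No operation range. *Smad7* fell by 38.4% in Laminectomy (log2 fold change -0.70, standard error 0.196, adjusted p = 0.00943, edgeR) and by 30.1% in SHAM (-0.52, standard error 0.196, adjusted p = 0.0373, edgeR). The SHAM call was lost when No operation replicate 2 or 4, or SHAM replicate 2, 3 or 4, was left out (log2 fold change from -0.54 to -0.35, adjusted p from 0.0572 to 0.0901), and was stronger without SHAM replicate 1 (-0.70, adjusted p = 0.00725). With total counts as library size neither was a DEG (-0.28 in SHAM, adjusted p = 0.219, and -0.39 in Laminectomy, adjusted p = 0.0936). The adjusted p over all alternatives ran from 0.00725 to 0.219 in SHAM and from 0.00228 to 0.0936 in Laminectomy.

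**Figure D3:**
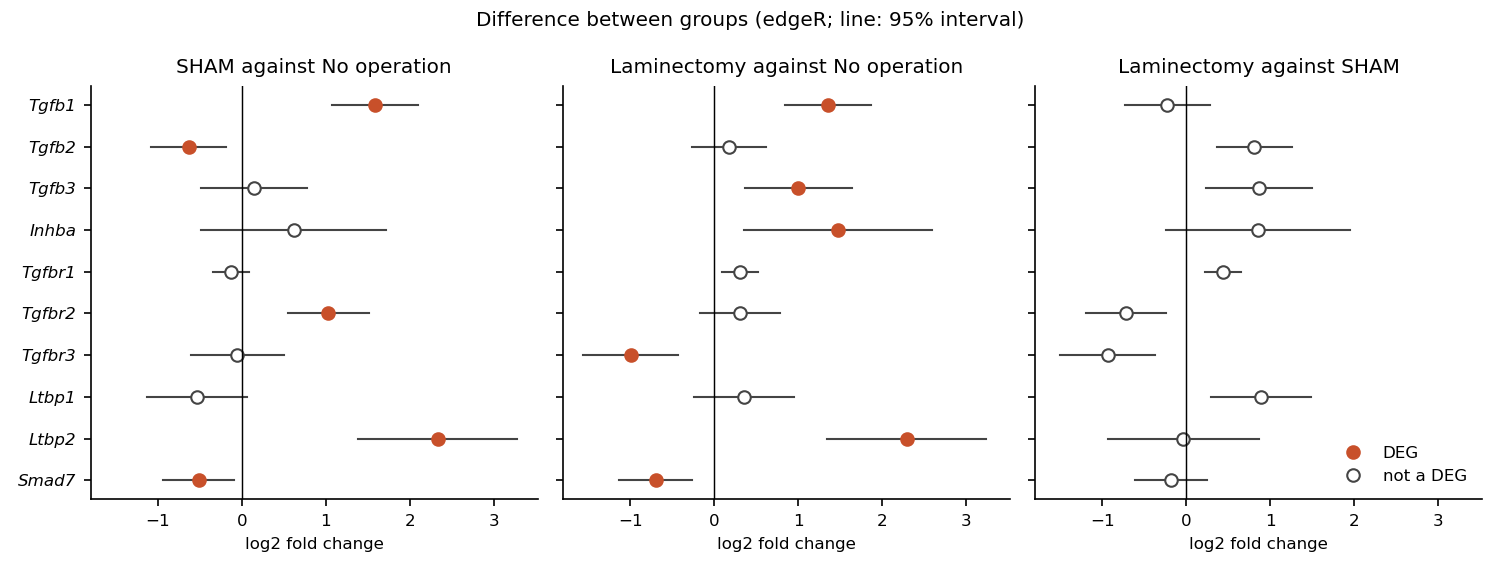
Log2 fold change of each member in the 3 comparisons (horizontal axis), with its 95% interval from the edgeR fit of all 12 mice as a line. Filled circles are DEGs, and open circles are not; in Laminectomy against SHAM no circle is filled, although the intervals of *Tgfb2*, *Tgfb3*, *Tgfbr1*, *Tgfbr2*, *Tgfbr3* and *Ltbp1* lie on one side of 0.

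Between Laminectomy and SHAM, which asks what opening the spinal canal adds to surgery, none of the 10 members was a DEG by edgeR, as was true of 0% of all genes tested. At an unadjusted p below 0.05 there were 6 members, against 16% of all genes, and DESeq2 called 4 members, against 4.14% of these genes. The CPM values of the 2 groups did not overlap for 6 members, against 10.1% of all genes. *Tgfb2*, *Tgfb3*, *Tgfbr1* and *Ltbp1* were higher in every Laminectomy mouse than in every SHAM mouse, and *Tgfbr2* and *Tgfbr3* were lower. The log2 differences were 0.81 for *Tgfb2* (standard error 0.204, adjusted p = 0.12), 0.86 for *Tgfb3* (standard error 0.29, adjusted p = 0.191), 0.44 for *Tgfbr1* (standard error 0.0994, adjusted p = 0.111) and 0.89 for *Ltbp1* (standard error 0.273, adjusted p = 0.161), all by edgeR. They were -0.72 for *Tgfbr2* (standard error 0.221, adjusted p = 0.162) and -0.94 for *Tgfbr3* (standard error 0.257, adjusted p = 0.139), by edgeR.

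The DESeq2 calls were *Tgfb2* (adjusted p = 0.0112), *Tgfbr2* (0.0403), *Tgfbr3* (0.0202) and *Ltbp1* (0.0387). DESeq2 gave *Tgfbr1* an adjusted p of 0.00354 with a change under the fold threshold, and *Tgfb3* an adjusted p of 0.0623. Over all alternatives the highest adjusted p of these genes was between 0.288 and 0.411. Without SHAM replicate 1 the 6 differences were 0.65 for *Tgfb2*, 0.61 for *Tgfb3*, 0.43 for *Tgfbr1*, 0.74 for *Ltbp1*, -0.62 for *Tgfbr2* and -0.82 for *Tgfbr3*, and each had the same sign in all 21 alternatives. The median absolute log2 difference was 0.76 over the 10 members and 0.19 over all genes. The members were chosen with earlier results of these data known, so their excess over all genes is a description only. The 8 cartilage and bone markers summed to between 687.9 and 2470 CPM in Laminectomy mice, to between 5.002 and 128.3 CPM in SHAM mice and to between 11.64 and 647.8 CPM in No operation mice. All 8 of them were higher in Laminectomy than in SHAM at an unadjusted p below 0.05, none was a DEG by edgeR and 2 were by DESeq2, and *Sost* was below 1 CPM in every SHAM mouse. At an unadjusted p below 0.05, 5 of 8 macrophage and monocyte markers were lower in Laminectomy than in SHAM, and of the 8 fibroblast markers 4 were lower and 1 higher, with none a DEG by edgeR and 2 of each list by DESeq2. The 6 neural and glial markers summed to 765.6 and 211 CPM in Laminectomy replicates 2 and 3, and to 40.13 and 30.5 CPM in Laminectomy replicates 1 and 4, against 38.27 to 146.8 CPM in SHAM mice. The part of these cells and of cartilage and bone in the members' differences was not tested.

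In order of mean level per length, *Tgfbr3* came first in No operation mice (75.39 TPM), ahead of *Tgfbr2* (68.86 TPM) and *Tgfb3* (63.66 TPM), and these 3 overlapped between mice. In SHAM mice *Tgfbr2* (174.3 TPM) and *Tgfb1* (166.3 TPM) overlapped at the top, and all 4 mice had more of either than of *Tgfbr3* (89.97 TPM), *Tgfb3* (88.13 TPM) or *Ltbp2* (83.85 TPM). The order of *Tgfbr3* and *Tgfb3* there rests on SHAM replicate 1, with 105.5 and 33.08 TPM, since in SHAM replicates 2 to 4 *Tgfb3* (111.7, 121.8 and 85.97 TPM) was above *Tgfbr3* (79.53, 95.07 and 79.78 TPM) in every mouse. In Laminectomy mice *Tgfb3* came first (165.4 TPM) and overlapped *Tgfb1* (148.2 TPM), followed by *Tgfbr2* (111.2 TPM), which overlapped *Tgfb1*. *Inhba* had the lowest mean in No operation mice (7.809 TPM), followed by *Smad7* (13.39 TPM) and *Ltbp2* (13.46 TPM), which overlapped. In SHAM and Laminectomy mice *Smad7* had the lowest mean (11.53 and 10.67 TPM).

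For each ligand the genes closest in pattern were sought over the 12 mice among 10627 genes with a mean of at least 10 CPM, by the root mean square difference of log2 CPM centered on the mean of each gene. Closest to *Tgfb1* were *Prkcd*, a protein kinase C (difference 0.122), and *Ucp2*, a mitochondrial carrier (0.131), against a spread of 0.782 of *Tgfb1* itself. *Prkcd* averaged 51.59, 164.6 and 125.4 CPM in No operation, SHAM and Laminectomy mice. Closest to *Tgfb2* were *Sdc2*, the proteoglycan syndecan-2 (0.151), and *Fdps*, an enzyme of isoprenoid synthesis (0.209), against a spread of 0.449. *Sdc2* averaged 92.06, 62.99 and 101.8 CPM in the same order. Closest to *Tgfb3* were *Heyl*, a transcriptional repressor downstream of Notch (0.223), and *Plekhh2* (0.274), and *Heyl* averaged 17.45, 19.89 and 36.16 CPM. The nearest genes to *Inhba*, *Nt5e* (0.459) and *Pla2g4a* (0.492), were farther off. *Ucp2* shares exon sequence with *Dnajb13* on the opposite strand.

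Other genes of the pathway were read from a list of 62 genes in the table, of which 60 were tested and 2, *Itgb8* and *Inhbe*, had too few counts. Between SHAM and No operation 26 were DEGs in the higher and 11 in the lower direction (61.7%), and between Laminectomy and No operation 24 and 10 (56.7%), beside 50.8% and 48.6% of all genes. In the counts of each role, higher and lower refer to DEGs. To set beside these counts, of all genes 25.7% were higher and 25.1% lower in SHAM, and 24.2% and 24.4% in Laminectomy. The median absolute log2 fold change of the list was 0.99 and 1.01, against 0.64 and 0.59 over all genes.

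Genes of latency and activation were mostly higher, 10 of 17 in SHAM and 10 of 17 in Laminectomy, with 2 and 1 lower. *Mmp14*, a membrane protease that can release latent TGF-β, rose from a mean of 163.5 CPM to 1089 CPM in SHAM (log2 fold change 2.74, adjusted p = 0.000455, edgeR) and 1136 CPM in Laminectomy (2.80, adjusted p = 0.00046, edgeR). *Ltbp4*, a relative of *Ltbp1* in elastic fibers, went the other way, from 556.4 CPM to 102.2 CPM in SHAM (-2.44, adjusted p = 3.65e-05, edgeR) and 111 CPM in Laminectomy (-2.33, adjusted p = 6.22e-05, edgeR). *Mmp9*, a secreted gelatinase, rose in Laminectomy (2.65, adjusted p = 0.0329, edgeR), where its No operation values ran from 6.729 to 444.2 CPM.

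None of the 8 other receptors and co-receptors was a DEG in the higher direction after either surgery, and 3 were lower in each. The share of DEGs, 37.5% in each, was below that of all genes (50.8% in SHAM and 48.6% in Laminectomy). *Acvr1*, a type I receptor named after its values were seen, passed the test in Laminectomy below the fold threshold, at 59.16 to 66.7 CPM against 39.04 to 54.65 CPM without operation (log2 fold change 0.38, adjusted p = 0.0183, edgeR). *Acvr2b*, an activin type II receptor, lay between 49.94 and 59.93 CPM without operation and fell to between 9.16 and 14.34 CPM in SHAM (log2 fold change -2.32, adjusted p = 2.11e-06, edgeR) and between 11.77 and 13.97 CPM in Laminectomy (-2.12, adjusted p = 3.32e-06, edgeR). *Acvr1c*, the type I receptor ALK7, which fat cells express strongly, lay between 15.44 and 31.42 CPM without operation and fell to between 0.8024 and 12.29 CPM in SHAM (-2.31, adjusted p = 0.0174, edgeR) and between 0.1588 and 1.865 CPM in Laminectomy (-4.47, adjusted p = 0.00083, edgeR). The muscle and adipocyte marker sums fell with them, and the part of those tissues was not tested.

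Among 5 activin ligands and antagonists, 4 were higher in SHAM and 1 in Laminectomy. Without SHAM replicate 1 one of the 4, *Fstl3*, was no longer a DEG in SHAM (log2 fold change 0.62, adjusted p = 0.0826, against 0.76 and 0.0303 with all mice, edgeR). *Inhbb*, the βB subunit, ranged from 15.49 to 26.07 CPM without operation, from 29.47 to 71.65 CPM after SHAM surgery and from 17.63 to 26.01 CPM after Laminectomy. It rose in SHAM (log2 fold change 1.03, adjusted p = 0.00685, edgeR), by 0.66 without SHAM replicate 1 (adjusted p = 0.0129, edgeR), and differed by -0.03 in Laminectomy (adjusted p = 0.929, edgeR). *Fstl1*, a follistatin-like secreted protein, rose in both (1.81, adjusted p = 0.000341, and 1.34, adjusted p = 0.00237, edgeR).

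Of 12 SMADs and their regulators, 2 were higher and 3 lower in each surgical group (41.7%, below the share of DEGs among all genes in each comparison). *Zfyve9*, which encodes the adaptor SARA that brings SMAD2 and SMAD3 to the receptor, fell from a mean of 80.77 CPM to 26.09 CPM in SHAM (log2 fold change -1.63, adjusted p = 2.86e-06, edgeR) and 30.17 CPM in Laminectomy (-1.42, adjusted p = 7.39e-06, edgeR). *Tgif1*, a corepressor of SMAD2, rose from 15.47 CPM to 47.11 CPM (1.61, adjusted p = 0.000368, edgeR) and 42.37 CPM (1.45, adjusted p = 0.000791, edgeR). The other DEGs of this list, named after their values were seen, were *Tgif2* (higher) and *Smad3* and *Smad6* (lower) in both groups.

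Among 6 extracellular binders, 1 was higher and 2 lower in SHAM (50%, near the share of all genes), and 2 higher and 3 lower in Laminectomy (83.3%). The small proteoglycans that bind TGF-β split. *Fmod* fell from a mean of 2353 CPM to 194.4 CPM in SHAM (log2 fold change -3.60, adjusted p = 0.000256, edgeR) and 431.5 CPM in Laminectomy (-2.45, adjusted p = 0.00253, edgeR). *Dcn* fell by 0.94 in SHAM (adjusted p = 0.0359, edgeR) and by 1.73 in Laminectomy (adjusted p = 0.00163, edgeR) on the log2 scale. *Bgn* rose from 1020 CPM to 2898 CPM (1.51, adjusted p = 0.000443, edgeR) and 2706 CPM (1.41, adjusted p = 0.000771, edgeR).

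Of 12 genes that TGF-β is known to induce in fibroblasts, 9 were higher in SHAM and 9 in Laminectomy, and 1, *Comp*, was lower in SHAM. On the log2 scale *Col3a1*, a fibrillar collagen, rose by 2.84 in SHAM (adjusted p = 0.00197, edgeR) and 2.17 in Laminectomy (adjusted p = 0.00888, edgeR), and *Postn*, a matricellular protein, by 2.56 (adjusted p = 0.0123, edgeR) and 2.84 (adjusted p = 0.00798, edgeR). DESeq2 gave no adjusted p for either. No operation replicate 1 was far above the rest of its group, at 9680 CPM of *Col3a1* against 1057 to 2180 CPM. For *Postn* it was at 2053 CPM against 99.61 to 329.7 CPM, so the size of both rises leans on that mouse. Every operated mouse was above it for both genes. *Cthrc1*, a secreted protein of activated fibroblasts, rose by 2.66 (adjusted p = 0.0148, edgeR) and 2.53 (adjusted p = 0.0194, edgeR). Here too the size leans on No operation replicate 1, at 139.5 CPM against 4.276 to 18.45 CPM in the rest of its group. *Ccn2* and *Tagln* were not DEGs in either group (*Ccn2* -0.62 and -0.49, *Tagln* 0.43 and 0.56), and they and *Comp* are named after their values were seen. The fibroblast marker sum moved with these genes, but *Col1a1* and *Col3a1*, which are on both lists, made up most of it in operated mice, and its part was not tested.

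**Figure D4:**
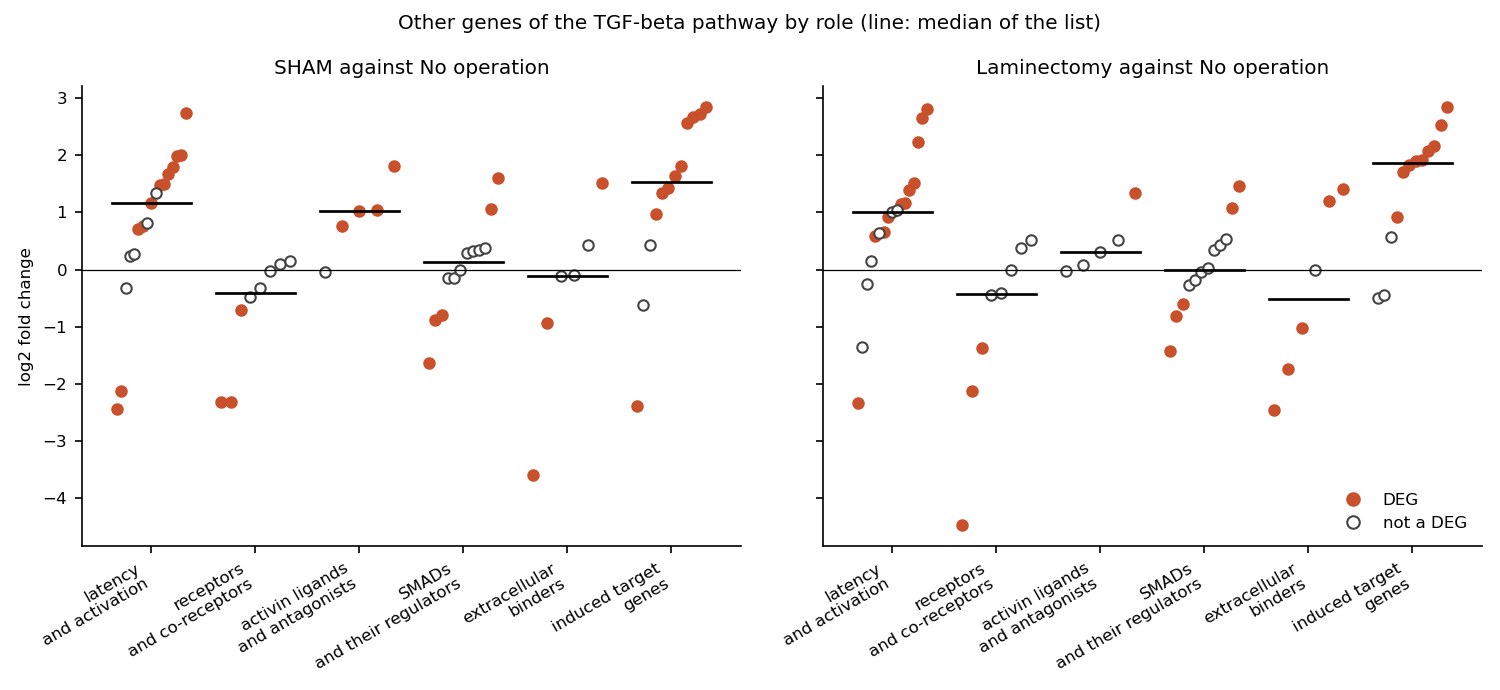
Log2 fold change (vertical axis) of the 60 other pathway genes tested, grouped by role, for SHAM and for Laminectomy against No operation. Filled circles are DEGs, open circles are not, and the line is the median of each role. The lists of latency and activation (10 of 17 DEGs in the higher direction in each) and of induced targets (9 of 12 in each) lie mostly above 0. Of the receptors 0 of 8 were DEGs in that direction, where 25.7% of all genes were in SHAM and 24.2% in Laminectomy.

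Between Laminectomy and SHAM none of the 60 pathway genes was a DEG by edgeR. There were 16 at an unadjusted p below 0.05, 5 higher and 11 lower in Laminectomy, against 16% of all genes, and DESeq2 called 6, against 4.14% of these genes. Of the 5 activin genes 2 were among the 11, including *Inhbb*, at 29.47 to 71.65 CPM in SHAM mice and 17.63 to 26.01 CPM in Laminectomy mice (log2 difference -1.07, standard error 0.276, adjusted p = 0.132 by edgeR and 0.0144 by DESeq2). Without SHAM replicate 1, the highest of them, the difference was -0.69 (standard error 0.191, adjusted p = 0.284, edgeR).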

How the data were processed

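Bulk mRNA sequencing of 12 mice was used, 4 per group as the labels give them. Per the labels, libraries were stranded and polyA-selected and were read as paired ends. The authors' processing notes name STAR 2.6.1b, GRCm38, featureCounts 2.0.1 and DESeq2 1.30.1. The authors deposited a table of estimated counts, not normalized, in which 10.2% of values are not whole. These were rounded (largest change 0.5), although whole counts had been assumed in the design. Per the study, featureCounts ran with default settings, which ignore strand. Since the table holds fractional values, how reads were counted where a gene and an antisense gene overlap is not known. The step that made fractional counts is not given in the sources used here. The authors' own tests rest on 3 mice per group that are not named, so all 4 were used.

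Genes were filtered with filterByExpr (4231 removed), scaled by TMM and fitted in 1 quasi-likelihood model over all mice (edgeR 4.0.16, R 4.3.3), with Benjamini-Hochberg adjustment over 14765 genes and intervals from the t quantile of the fit. The limits for a DEG (0.05 for the adjusted p, 0.5 for the size of the log2 fold change) were those of the study. DESeq2 1.42.0, other scalings, filters, thresholds, a replicate block and leaving out each mouse were tried, and the test was run on simulated data first. TPM used GENCODE M21 exon lengths for 18331 matched genes. Log2 CPM used a prior count of 2.

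The members, the pathway list and the marker lists were chosen with earlier results of these data known. Named genes were the members, for each role of the pathway list the 2 DEGs with the largest absolute change and at least 5 CPM in the higher group in each comparison with No operation, and the 2 genes nearest in pattern to each ligand. One gene that this rule names is not reported here. The TGACGTCA pattern, *Comp*, *Ccn2*, *Tagln*, *Tgif2*, *Smad3*, *Smad6*, *Itgb8*, *Inhbe*, *Acvr1*, *Fstl3*, *Sost*, *Des*, *Pdgfrb*, *Cd4*, *Cd3e*, *Pf4*, *Itga2b*, *Gp9*, *Ppbp*, *Gp1bb*, *Gfap*, *Pdgfra*, *Lum*, *Fap*, *Pi16* and the fibroblast sum without collagens and *Dcn* were added after values were seen. *Inhbc*, also listed, has no row. Replicate libraries differed by far more than sampling noise. Reads carry no molecular identifiers, and with 4 mice a group the spread between mice, a common coefficient of variation of 28.3%, limits precision.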

Additional observations from a re-analysis of the deposited data

Results flagged for a closer look

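Of the 30 groups of 4 mice (10 genes in 3 groups), 3 held a mouse whose gap to the nearest other mouse as a share of the range of the group was above Dixon's 95% critical value, which chance passes in about 5% of groups. *Tgfb2* in SHAM replicate 1 was at 18.15 CPM, with the other SHAM mice between 30.8 and 32.99 CPM (ratio 0.852). *Inhba* in Laminectomy replicate 1 was at 122.7 CPM, with the others between 30.24 and 41.08 CPM (ratio 0.883). *Ltbp1* in No operation replicate 3 was at 137 CPM, with the others between 60.92 and 70.41 CPM (ratio 0.875). SHAM replicate 1 is the mouse with the low sum of regenerating muscle markers (4.552 CPM), and whether that bears on its *Tgfb2* level was not tested.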

How the results depend on the processing

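No member's called change turned direction in any of the 21 alternatives. With DESeq2, Laminectomy against SHAM gave 4 member DEGs, 6 pathway DEGs and 696 DEGs in all genes it tested (611 among the 14765 genes that edgeR tested), against 0 by edgeR. With total counts as library size 3 members were DEGs between SHAM and No operation, and with an absolute log2 fold change above 1 there were also 3, with 4589 and 4323 DEGs among all genes in SHAM and in Laminectomy against No operation. Leaving out single mice gave 4 to 5 and 5 to 7 member DEGs, 35 to 39 and 32 to 37 pathway DEGs, and 6966 to 7642 and 6534 to 7416 DEGs among all genes in SHAM and in Laminectomy against No operation, and 0 to 0 between Laminectomy and SHAM. Apart from the alternatives' own construction, the cause was not tested.

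The replicate block gave 5, 6 and 0 member DEGs, 37, 35 and 0 pathway DEGs and 7442, 7153 and 0 DEGs in all genes, and changed no member's call. Whether the numbers pair the mice is unclear. Of 12 same-number pairs 7 had deviations correlated above 0.1 (r from -0.228 to 0.352), and 6 of 12 mice matched their own number best. No chance share was worked out for either count.

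Of the log2 fold changes of members under the 21 alternatives, 17 lost and 10 gained a call, 5 moved by more than their standard error, and the other 598 kept their side of the threshold. Of all 630, 13 changed sign, none of them DEGs: 5 of *Ltbp2* and 1 of *Smad7* between Laminectomy and SHAM, 4 of *Tgfbr3*, 1 of *Tgfb3* and 1 of *Tgfbr1* in SHAM, and 1 of *Tgfb2* in Laminectomy. The tissue is mixed, so no level is that of a cell type.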

Other observations

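Further marker lists were read beside the members. The 6 mural and smooth muscle markers summed to between 2502 and 5696 CPM in No operation, 608.2 and 1570 CPM in SHAM and 1067 and 1958 CPM in Laminectomy mice, with 5 of 6 lower in SHAM and 3 in Laminectomy and 1, *Pdgfrb*, higher in each. *Des*, which skeletal muscle also expresses, averaged 2797 CPM of this sum without operation. The 5 platelet and megakaryocyte markers, from cells that store TGF-β1, summed to between 25.17 and 151 CPM, 180.1 and 571.4 CPM, and 137.7 and 256.7 CPM in the same order, with 1 of 5 higher in each surgical group. That gene was *Pf4*, which rose from a mean of 28.13 CPM to 250.4 CPM in SHAM and 123.5 CPM in Laminectomy. The others were not called higher and their means went both ways. In the 3 groups *Itga2b* averaged 19.56, 9.807 and 16.6 CPM and *Gp9* 2.116, 0.5094 and 1.991 CPM. *Ppbp* averaged 29.38, 50.41 and 35.35 CPM and *Gp1bb* 2.899, 3.572 and 4.768 CPM. The 6 endothelial markers summed to between 680.8 and 850.2 CPM, 501.1 and 687.7 CPM, and 454.3 and 664.5 CPM, with 3 of 6 lower in each surgical group. The sum of the 7 neutrophil markers ranged widely in every group (14.58 to 1787, 411.8 to 1164 and 454.2 to 1809 CPM), with 1 of 7 higher in SHAM and 0 in Laminectomy. The 6 T and NK cell markers summed to between 0.9113 and 10.58 CPM in No operation, 17.53 and 23.33 CPM in SHAM and 13.45 and 25.54 CPM in Laminectomy mice, with every operated mouse above every No operation mouse. Of the 5 tested, 4 were higher in SHAM and 3 in Laminectomy, *Cd4* having the highest level of them in both, and *Cd3e* was below 1 CPM in every mouse. The 6 neural and glial markers summed to between 59.2 and 98.49 CPM in No operation, 38.27 and 146.8 CPM in SHAM and 30.5 and 765.6 CPM in Laminectomy mice. Of the 3 tested by edgeR, 1, *Gfap*, was higher in Laminectomy than in No operation (4 of 6 by DESeq2) and none in SHAM. *Gfap* was at 52.75 and 18.08 CPM in Laminectomy replicates 2 and 3. Laminectomy replicates 1 and 4, at 1.376 and 0.2607 CPM, were within the No operation range of 0.1402 to 1.599 CPM. Of the 3 tested, 2 were higher in Laminectomy than in SHAM at an unadjusted p below 0.05 (0 DEGs by edgeR, 2 by DESeq2).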
